A study of Homo sapiens with 4 samples.

Results

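The metallothioneins and the transporters that move zinc across cell membranes were examined in MKN45, an established line of human gastric adenocarcinoma cells, exposed to the lipopolysaccharide (LPS) of the stomach bacterium Helicobacter pylori. The members were 10 listed genes: the metallothioneins MT1E, MT1F, MT1G, MT1H, MT1X and MT2A, the metal-sensing transcription factor MTF1, the zinc exporter SLC30A1 and the zinc importers SLC39A1 and SLC39A14. All 10 were found by taking every probe set that the platform annotation assigns to 1 of these symbols alone, which gave 20 probe sets, out of 19775 symbols and 41091 single-symbol probe sets on the array. A probe set is the group of short oligonucleotides on an Affymetrix array that together give 1 expression value. The genes were selected on their baseline levels and their LPS minus untreated differences in these same arrays, so both are given below as a description, and calls among the members are counted only beside the share called over all probe sets.

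The study compared 2 arrays of untreated MKN45 cells, which received fresh medium, with 2 arrays of cells given medium with 10 µg/ml H. pylori LPS, and total RNA was taken 8 h later in both groups. The series text mentions 2 independent experiments, and all 4 arrays come from the same line with no genetic change named in the labels. No separate donors or animals are involved, so p-values measure only the spread between these arrays. The epithelial markers EPCAM, CDH1, KRT8, KRT18 and KRT19 each had a probe set at a log2 level of 13.1 to 14.6 in untreated cells, and the brightest CLDN4 probe set lay at 9.49. Of 12 probe sets of 5 leukocyte markers, 4 lay above the level filter of 6.06 used for the tests, and the 5 of PTPRC, the pan-leukocyte marker, lay under it at 3.80 to 5.55. The brightest of the 12, a CD53 probe set, lay at 8.39 untreated and 8.71 with LPS (limma adjusted p = 0.353). Of 29 probe sets of 7 fibroblast and endothelial markers 16 passed the filter. Over all 29, untreated means lay at 3.77 to 9.12 and differences at -0.17 to 0.20. The part of these markers in the members' differences was not tested.

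Metallothioneins are small, cysteine-rich proteins that bind zinc and copper and buffer the free metal inside the cell. Their genes are switched on by MTF1, which binds metal response elements in promoters when zinc rises, and SLC30A1, which exports zinc at the plasma membrane, is another of its targets. Transporters of the SLC39 family bring zinc into the cytosol, and SLC39A14, which also carries iron and manganese, is known as a gene of the acute-phase response in liver.

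Matches to the response elements of this pathway were sought in the RefSeq promoter table (build GRCh38.p14). It had an entry for 6 of the 10 members, and MT1E, MT1F, MT1G and SLC39A14 had none. The 150 bases before the transcript start were searched on both strands for the core of the metal response element, TGCACNC or TGCGCNC, and for the NF-kB motif. The windows of the metallothioneins and of SLC30A1 are shown because they hold matches to the core of the metal response element. Each match is in capitals, 5′ to 3′ on the gene's strand.
MT1H (chr16:56669664-56669813, plus strand): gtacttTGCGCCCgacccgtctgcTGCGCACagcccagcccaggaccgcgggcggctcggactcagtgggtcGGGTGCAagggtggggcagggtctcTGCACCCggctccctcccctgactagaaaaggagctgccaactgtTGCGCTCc
MT1X (chr16:56682320-56682469, plus strand): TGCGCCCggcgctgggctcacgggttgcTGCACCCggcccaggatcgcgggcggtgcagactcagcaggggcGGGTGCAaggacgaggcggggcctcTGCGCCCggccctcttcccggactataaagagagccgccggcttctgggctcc
MT2A (chr16:56608434-56608583, plus strand): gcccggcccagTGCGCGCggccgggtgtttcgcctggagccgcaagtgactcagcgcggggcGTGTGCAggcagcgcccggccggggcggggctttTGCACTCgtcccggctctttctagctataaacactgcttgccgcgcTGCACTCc
SLC30A1 (chr1:211579162-211579311, minus strand): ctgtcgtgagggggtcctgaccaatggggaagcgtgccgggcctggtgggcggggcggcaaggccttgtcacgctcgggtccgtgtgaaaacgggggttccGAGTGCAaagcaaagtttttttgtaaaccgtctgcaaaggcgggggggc

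MT1H held 5 matches to the metal response element core, MT1X and MT2A 4 each, and SLC30A1 held 1. Of 35116 promoter windows of the same length in the table, 17.1% held at least 1 match and 0.689% held at least 3. MT1H and MT1X had matches at the same places, from 78 to 72 and from 53 to 47 bases before the start, the first of them on the opposite strand. MT2A and MT1H each had one 8 to 2 bases before the start. MTF1 had no match to either motif in this window.

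SLC39A1 has 2 starts in the table. Neither window held a metal response element core, and the one at the more 3′ start held an NF-kB match 16 to 7 bases before it. The last 30 bases before that start are shown because they hold the only NF-kB match in the member windows searched, in capitals.
SLC39A1 (chr1:153963538-153963567, minus strand): ctatgggagggggcGGGAATTCCCgactct

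An NF-kB match was found in 3.15% of all windows of this length. No window of MT1H, MT1X, MT2A, MTF1 or SLC30A1 held one. These are matches of letters, and binding was not measured. Which SLC39A1 start is used in MKN45 cells, and any part of the match in the difference with LPS, were not tested.

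**Figure D1:**
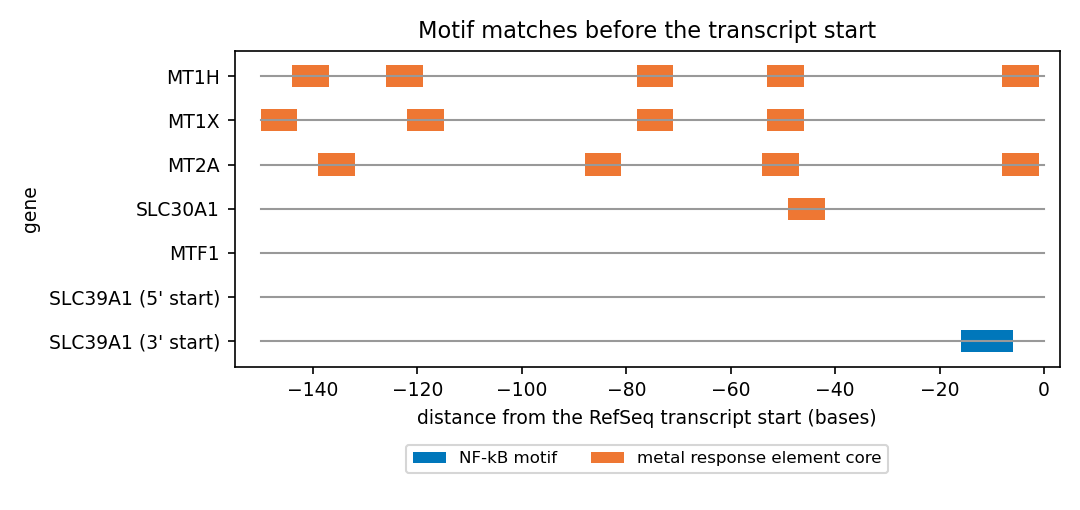
Position of motif matches in the 150 bases before the RefSeq transcript start, in bases on the horizontal axis, with 1 line per promoter window. Orange bars are cores of the metal response element, 5 in MT1H, 4 each in MT1X and MT2A and 1 in SLC30A1, and the blue bar is the NF-kB match before the 3′ start of SLC39A1.

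Arrays with and without LPS were compared for changes in expression after 8 h. SLC39A1 was 1.40-fold higher with LPS, and MT1F was 1.19-fold and 1.10-fold higher on its 2 probe sets. The other metallothioneins, MTF1, SLC30A1 and SLC39A14 differed by 0.13 or less on the log2 scale in either direction. Of the 18 member probe sets that passed the level filter, 0 passed an adjusted p under 0.05 in the limma fit, where 0.00785% of 38229 probe sets passed. Before adjustment, a p under 0.05 was reached upward by 2 members (SLC39A1 and 1 probe set of MT1F) and downward by 0, against 3.69% and 8.02% of all probe sets tested. Nothing is read from these counts, since the choice of genes used the contrast. The arrays did record a response: CCL20, a chemokine gene that attracts lymphocytes, went from 5.70 and 5.61 to 8.66 and 8.50 (limma adjusted p = 0.000231). The remaining 2 probe sets past the threshold were those of the neutrophil attractants CXCL1, higher by 1.99, and CXCL8, higher by 1.73. A further CXCL8 probe set, 211506_s_at, was higher by 1.17 and did not pass (limma adjusted p = 0.123).

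SLC39A1 encodes a zinc importer of the plasma membrane that is made in most cell types. Its only probe set, 217778_at, read 8.03 and 7.81 untreated and 8.35 and 8.47 with LPS (log2 levels, here and below). Both LPS arrays lay above both untreated arrays. The means were 7.92 ± 0.16 and 8.41 ± 0.08 (SD, n = 2 each), a difference of 0.49. The larger gap between replicates of a group was 0.22, in the untreated pair. Among the 38229 probe sets tested, 23 had a larger difference upward. With 1 array left out the difference was 0.37 to 0.60.

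The metallothioneins had 10 probe sets, all of which passed the level filter, and 9 of them were of the type _x_at, whose probes can bind transcripts of several genes. The metallothionein genes are close copies, so signals of those 9 probe sets can share transcripts and they do not count as independent measurements of 6 genes. Their untreated means lay between 7.29 and 9.59. The remaining probe set, 210472_at of MT1G, lay at 6.38. Levels of different probe sets depend on their probes and cannot be set against each other.

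MT1F stood highest among the metallothioneins in its difference. On 213629_x_at the untreated arrays read 9.19 and 9.29 and the LPS arrays 9.43 and 9.55, a difference of 0.26 against a larger replicate gap of 0.12. Its other probe set, 217165_x_at, read 9.39 and 9.48 untreated and 9.57 and 9.58 with LPS, a difference of 0.14. The groups did not overlap on either probe set.

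MT1X had values of 9.33 and 9.42 untreated and 9.44 and 9.58 with LPS on 208581_x_at, a difference of 0.13. The groups did not overlap there, but the 2 LPS arrays were 0.14 apart. On 204326_x_at, annotated to the same gene, the values were 9.34 and 9.40 untreated and 9.38 and 9.40 with LPS, a difference of 0.02 with overlapping groups. The 2 probe sets of this gene thus did not give the same picture.

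MT1G also had a pair of probe sets, and they pointed in opposite directions. On 204745_x_at the values were 8.64 and 8.76 untreated and 8.84 and 8.75 with LPS, a difference of 0.09 with overlapping groups. The 210472_at probe set, the only metallothionein member outside the _x_at type, read 6.42 and 6.34 untreated and 6.30 and 6.24 with LPS, a difference of -0.11. There both LPS arrays lay below both untreated arrays, at levels close to the filter.

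MT1E read 8.80 and 8.90 untreated and 9.05 and 8.89 with LPS on 212859_x_at, a difference of 0.12. On 216336_x_at it read 7.34 and 7.23 untreated and 7.34 and 7.38 with LPS, a difference of 0.07. In both cases the groups overlapped, and the difference was smaller than the larger replicate gap.

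MT1H, on 206461_x_at, read 9.29 and 9.38 untreated and 9.38 and 9.38 with LPS. Its difference of 0.04 came from 1 low untreated array, and the second untreated array stood at the level of the LPS arrays. MT2A, the metallothionein gene best known as broadly expressed in human tissues, read 9.65 and 9.52 untreated and 9.58 and 9.62 with LPS on 212185_x_at. The LPS arrays of MT2A lay between the untreated arrays, and its difference was 0.01 (-0.0034 after median centring of the arrays).

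**Figure D2:**
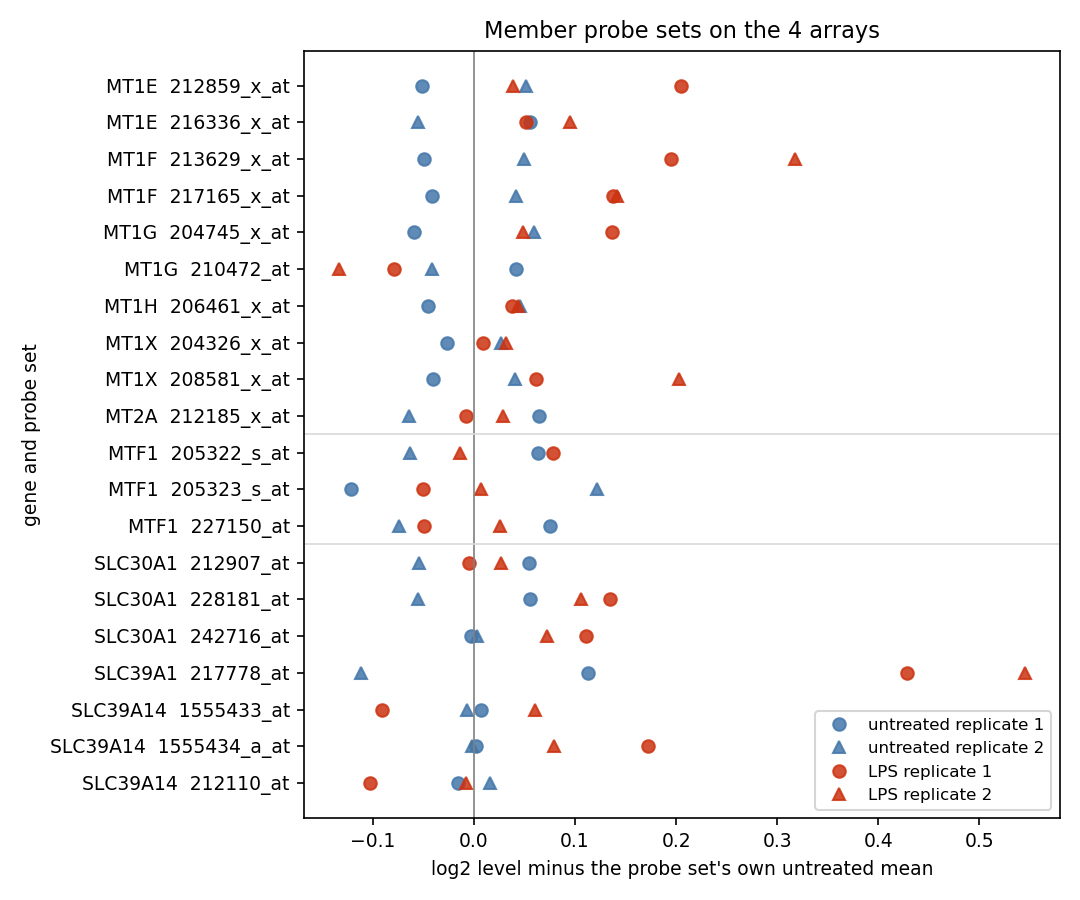
Log2 level of each member probe set on each array minus the untreated mean of that probe set, with circles for replicate 1 and triangles for replicate 2, blue for untreated and red for LPS. SLC39A1 stands out to the right, both probe sets of MT1F have red points to the right of blue ones, and in most other rows the colours mix.

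Over the 10 metallothionein probe sets the median difference was 0.08, with 9 above 0 and 1 below. Over all 38229 probe sets tested the median was -0.0039, and over the 10891 probe sets with a mean level of 8 to 10, where most metallothionein values lay, it was -0.03. Both LPS arrays lay above both untreated arrays on 3 of the 10 (19.5% of all probe sets) and below them on 1 (21.1% of all probe sets). With 1 array left out the median was 0.05 (without the first LPS array) to 0.12 (without the second untreated array). It was 0.07 after median centring of the arrays, with 8 of 10 above 0, and 0.11 after quantile normalization, with 9 of 10 above 0.

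Over the same 10 probe sets the median absolute gap between the untreated arrays was 0.0946, that between the LPS arrays 0.0491, and the median absolute difference between the groups 0.0995. The second untreated array read higher than the first on 7 of 10 metallothionein probe sets, with a median difference of 0.08, the same size as the median difference with LPS. Over all probe sets the corresponding median between the untreated arrays was 0.0019, and over those with a mean level of 8 to 10 it was -0.03. The second LPS array read higher than the first on 7 of 10, with a median of 0.01. With each probe set centred on its own mean, the per-array medians were -0.09 and -0.02 for the untreated arrays. They were 0.02 and 0.02 for the LPS arrays, so the first untreated array was the lowest by this measure. Each of these medians can come from a different probe set. Without the first untreated array the median difference with LPS was still 0.07, with 7 of 10 probe sets above 0. With all 4 arrays it was 0.08.

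MTF1, the zinc-sensing factor that activates metallothionein genes, showed no separation on any of its 3 probe sets. It read 9.10 and 8.97 untreated and 9.11 and 9.02 with LPS on 205322_s_at (difference 0.03). The values on 205323_s_at were 8.84 and 9.08 untreated and 8.91 and 8.97 with LPS (difference -0.02), and on 227150_at 9.01 and 8.86 untreated and 8.89 and 8.96 with LPS (difference -0.01). The groups overlapped on each of the 3, and each difference was smaller than the larger replicate gap of 0.13 to 0.24.

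SLC30A1, the zinc exporter and MTF1 target, read 11.21 and 11.10 untreated and 11.15 and 11.18 with LPS on its brightest probe set, 212907_at. Its LPS values lay between the untreated ones there (difference 0.01, or -0.0036 after median centring). On 228181_at it read 8.94 and 8.83 untreated and 9.02 and 8.99 with LPS, a difference of 0.12. On 242716_at, under the level filter, it read 5.86 and 5.87 untreated and 5.98 and 5.94 with LPS, a difference of 0.09. These last 2 probe sets had both LPS arrays above both untreated arrays, which the brightest did not.

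SLC39A14, the importer of zinc, iron and manganese, read 11.28 and 11.31 untreated and 11.19 and 11.29 with LPS on 212110_at, its brightest probe set, a difference of -0.06 with overlapping groups. On 1555434_a_at it read 6.96 and 6.96 untreated and 7.13 and 7.04 with LPS, a difference of 0.13 without overlap. On 1555433_at, under the level filter, it read 4.55 and 4.54 untreated and 4.46 and 4.61 with LPS, a difference of -0.02. The 3 probe sets therefore gave differences on both sides of 0.

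The 7 probe sets of the zinc transporters had a median difference of 0.09. Both LPS arrays lay above both untreated arrays on 4 of them, against 19.5% of all probe sets, and below on 0, against 21.1%. Over all 20 member probe sets the median was 0.06, with 15 above 0 and 5 below, and the groups were separated upward on 7, downward on 1 and overlapped on 12. The median was 0.01 when probe sets of the types _x_at and _s_at were left out, which removed 9 of 10 metallothionein probe sets. The difference exceeded the larger replicate gap on 7 of 20, against 28.5% of all probe sets.

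**Figure D3:**
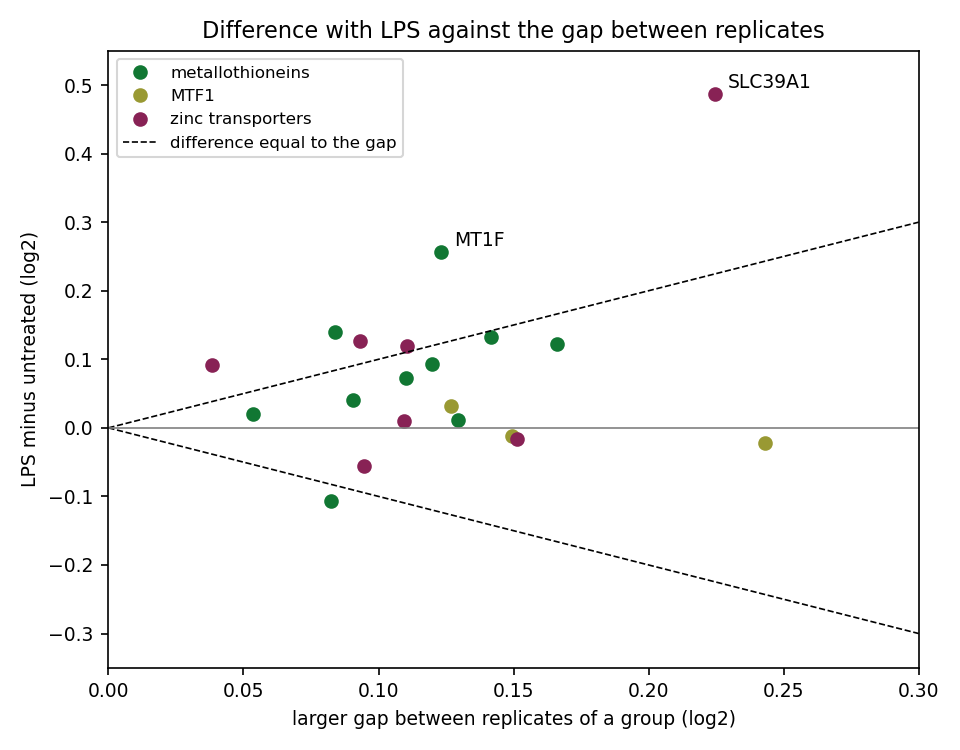
LPS minus untreated for each member probe set (vertical, log2) against the larger of the gaps between replicates of a group (horizontal, log2). Points beyond the dashed lines differ by more than that gap, which holds for 7 of 20, and SLC39A1 (0.49) and MT1F (0.26) lie farthest above them.

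Poly-A control transcripts, added to the RNA before labelling, also differed between the groups. Their mean over 24 probe sets was 8.60 and 8.25 untreated and 7.98 and 7.92 with LPS, so the first untreated array was the highest, where it was the lowest for the metallothioneins. The part of this in the members' differences was not tested.

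Whole families and neighbouring pathways were compared next, and here the limma test was applied. The lists were written with earlier results of these data known, and hold families and textbook pathways. The 6 lists held 52 genes on the array with 127 probe sets, of which 109 passed the level filter. In limma, 0 of 109 passed an adjusted p under 0.05, where 0.00785% of all 38229 probe sets tested passed. Before adjustment, a p under 0.05 was reached by 4 upward and 8 downward, against 3.69% and 8.02% of all tested. The same shares stand beside the counts of each list below. With a share of 0.00785%, a count of 0 says little about a list. The median difference over the 127 was -0.0030, and 0.0016 over all 54613 probe sets.

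The other metallothioneins on the array were MT1M, MT3, MT4 and MT1HL1, each with 1 probe set, of which 3 passed the filter. In limma 0 of 3 passed, 1 reached an unadjusted p under 0.05 (upward), and the median of the 4 was 0.14. MT1HL1, an MT1H-like copy read by an _x_at probe set, lay at 9.51 and 9.50 untreated and at 9.67 and 9.69 with LPS, a difference of 0.17 (interval 0.01 to 0.34, limma adjusted p = 0.41). The groups did not overlap, but its probes may share transcripts with the members above. MT4, known from stratified epithelium, differed by 0.16 (limma adjusted p = 0.631), and MT3, known as the brain metallothionein, by 0.11 (adjusted p = 0.645). Both differences were smaller than the larger replicate gap, 0.26 for MT4 and 0.16 for MT3. Of the 4 probe sets, only that of MT1HL1 differed by more than this gap.

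The other zinc exporters, 10 genes with 25 probe sets and 21 past the filter, had a median difference of -0.01. In limma 0 passed, while an unadjusted p under 0.05 was reached by 0 upward and 2 downward. Both of the latter belonged to SLC30A9, a zinc transporter of mitochondria, which read 9.86 and 9.77 untreated and 9.52 and 9.47 with LPS on 202614_at, a difference of -0.31 (interval -0.49 to -0.14, limma adjusted p = 0.249). Its second probe set, 229500_at, differed by -0.31 as well (limma adjusted p = 0.373). TMEM163, a zinc-binding transporter of vesicles, differed by -0.17 on 223503_at (limma adjusted p = 0.44) and by -0.03 on its other probe set.

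The other zinc importers, 12 genes with 27 probe sets and 24 past the filter, had a median of 0.02. In limma 0 passed, and an unadjusted p under 0.05 was reached by 0 in either direction. The smallest p-values belonged to SLC39A3 (0.20 on 223917_s_at, limma adjusted p = 0.433), SLC39A6 (0.26 on 1555460_a_at, adjusted p = 0.474) and SLC39A10 (-0.18, adjusted p = 0.474). The other 2 probe sets of SLC39A3 differed by -0.04 and 0.07. The brightest SLC39A6 probe set, 202088_at, differed by 0.01, and the remaining 2 by 0.10 and 0.04. SLC39A8, a relative of SLC39A14 known as a target of NF-kB, had 6 probe sets with differences of -0.15 to 0.12.

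Copper and iron handling were compared because metallothioneins bind copper and SLC39A14 carries iron. Copper genes (7 genes, 11 probe sets, 10 past the filter) had a median of -0.05. In limma 0 passed, and an unadjusted p under 0.05 was reached by 1 upward and 1 downward. The copper pump ATP7A differed by -0.31 (205197_s_at, limma adjusted p = 0.295) and by -0.10 on its other probe set. Its relative ATP7B differed by 0.20 on 204624_at (limma adjusted p = 0.423) and by -0.02 on its other probe set, which lay under the level filter. The copper chaperone COX17 differed by -0.16 (limma adjusted p = 0.513).

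Iron genes (12 genes, 40 probe sets, 35 past the filter) had a median of -0.03. In limma 0 passed, and an unadjusted p under 0.05 was reached by 1 upward and 4 downward. SLC40A1, which encodes the iron exporter ferroportin, had the smallest adjusted p over the 6 lists. It read 12.26 and 12.18 untreated and 11.87 and 11.81 with LPS on 223044_at, a difference of -0.38 (interval -0.50 to -0.25, limma adjusted p = 0.164). Its second probe set, 233123_at, differed by -0.40 (adjusted p = 0.232), and the groups did not overlap on either. The transferrin receptor TFRC differed by -0.28 on 240686_x_at (limma adjusted p = 0.293) and by 0.27 on 237215_s_at (adjusted p = 0.774), and by 0.01 on each of its 2 brightest probe sets, 207332_s_at and 208691_at.

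Glucocorticoids are a classical inducer of metallothionein genes, so a list of glucocorticoid response genes was added (7 genes, 20 probe sets, 16 past the filter). Its median was 0.03. In limma 0 passed, and an unadjusted p under 0.05 was reached by 1 upward and 1 downward. TSC22D3 differed by 0.26 on 235364_at (limma adjusted p = 0.393), at an untreated mean of 6.04, close to the level filter. Its brightest probe set, 208763_s_at, differed by 0.04 with overlapping groups. On 207001_x_at the difference was 0.17, against a larger replicate gap of 0.21. The receptor NR3C1 differed by -0.18 on 201865_x_at (adjusted p = 0.41) and by -0.23 on 216321_s_at (adjusted p = 0.433), while its other 3 probe sets differed by -0.16, 0.10 and 0.11, the last of them under the level filter.

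**Figure D4:**
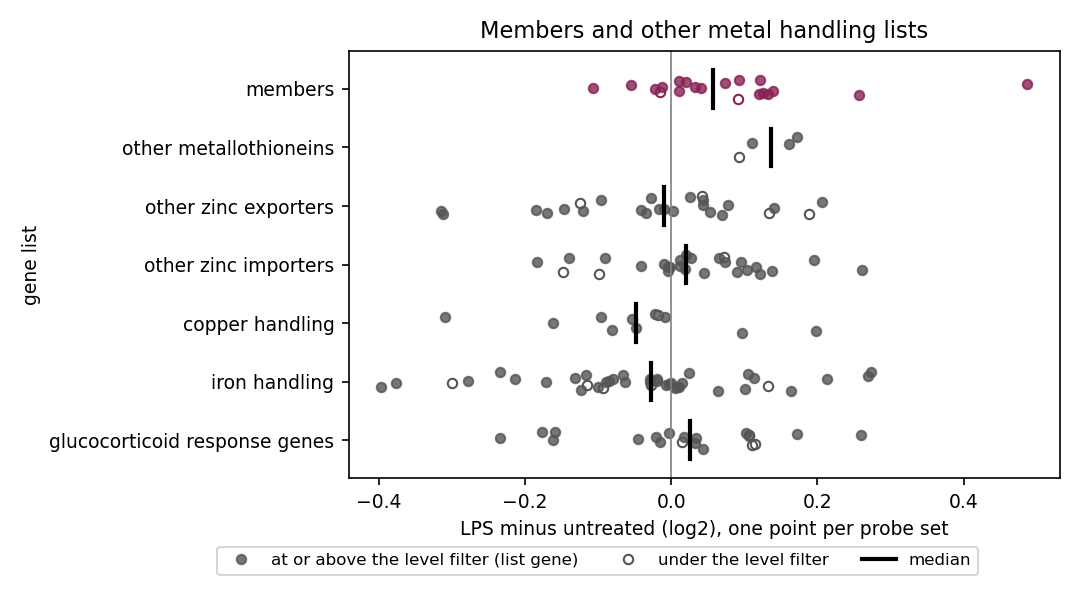
LPS minus untreated (log2) of each probe set, with the members on top and the 6 lists of other genes under them, filled points for probe sets at or above the level filter, open points for those under it, and black bars for list medians. The other metallothioneins lie at 0.09 to 0.17, where only MT1HL1 differed by more than its larger replicate gap. The lowest points are those of SLC40A1 in the iron list.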

How the data were processed

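The authors deposited 1 log2 level for each of 54675 probe sets on 4 arrays, a scale judged from the values. MAS5 and RMA are named in the submitters' processing notes without a version, and which of them gave this table is not given in the sources used here. At equal rank, values of the 4 arrays lay within 0.0978 of each other, so a shift of all transcripts in 1 direction would not be seen. No further normalization was applied.

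The 62 control probe sets were left out, as were, for tests, probe sets whose mean over all arrays lay under the 30 percentile, which left 38229. The test was limma 3.58.1 in R 4.3.3 (lmFit, eBayes with an intensity trend, two-sided, Benjamini-Hochberg over all 38229, threshold 0.05), and the procedure was tested on simulated data. Intervals are 95% intervals of the fitted difference. The members and lists were chosen with earlier results of these data known. The rule named every member and, in each list, up to 4 probe sets past the threshold or else the 3 with the smallest p, with CCL20, CXCL1 and CXCL8 as a check of the response. Further probe sets of those genes, and SLC39A8, were added after their values were seen. Of the listed genes, MT1A, MT1B, MT1L, MT1JP, MT1DP, FTH1, IREB2 and PER1 had no probe set with that symbol alone. Promoter windows came from RefSeq, GRCh38.p14. Probe sets are given without coordinates, since the sources used here state no build for them. Alternatives were other level filters, normalizations and variance models, the replicate number as a block, probe sets other than _x_at and _s_at, and each array left out in turn.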

Additional observations from a re-analysis of the deposited data

How the results depend on the processing

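None of the probe sets of the 6 lists passed the limma threshold under any alternative run (0 in each). Over all probe sets, 3 passed, and the count was 5 with a filter at the 50 percentile or robust estimation, 8 after quantile normalization or cyclic loess, 17 after median centring, 6 without _x_at and _s_at probe sets, and 2 to 11 with 1 array left out, the highest without untreated replicate 1. The cause was not tested. The members' median difference of 0.06 was 0.076 after quantile normalization, 0.068 after cyclic loess and 0.043 after median centring. It was 0.011 without _x_at and _s_at probe sets (9 of 10 metallothionein probe sets gone), and 0.046 to 0.075 with 1 array left out. The within-group SD of the median over members was 0.0051, from 2 arrays per group. From the first untreated array to the second, centred medians went from -0.09 to -0.02 for metallothioneins. For zinc transporters they went the other way, from -0.0048 to -0.06. Such opposite shifts cancel in a median over all members, so this SD is no measure against which to judge the difference. With the replicate number as a block (replicate block) the count over all probe sets was again 3 and the median 0.06. Deviations of same-numbered arrays correlated at 0.154 over probe sets, and with 2 pairs this does not show pairing. The 3 normalizations and the left-out arrays are the only settings that can change a member difference. Of 60 differences under the 3 normalizations, 8 moved by more than the within-group SD of their own probe set and 6 changed sign. Of 80 with 1 array left out, 13 changed sign. In those fits a group with a single array takes its spread from the other group. With 2 arrays per group the number of arrays limits the precision.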
